A study of Homo sapiens with 20 samples.

Results

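The genes described here encode 10 subunits of eukaryotic initiation factor 3 (eIF3). They are EIF3A (ENSG00000107581), EIF3B (ENSG00000106263), EIF3D (ENSG00000100353), EIF3E (ENSG00000104408), EIF3F (ENSG00000175390), EIF3G (ENSG00000130811), EIF3H (ENSG00000147677), EIF3I (ENSG00000084623), EIF3L (ENSG00000100129) and EIF3M (ENSG00000149100). They were taken by Ensembl gene ID from the 19029 genes counted, and all 10 were present in the 4 count tables and passed the filter on low counts in every comparison. The libraries came from HEK 293T, a transformed human embryonic kidney cell line whose genotype is labelled WT. Cells received i14G1-12 at 5 µM or the solvent DMSO over 1 h, in a study set by its title around an inhibitor of the factors eIF1 and eIF4G1. Extracts fixed with formaldehyde were digested with RNase I and separated by ultracentrifugation, and initiation complexes were then recovered through 1 of 4 factors. These were eIF1 (through its HA tag), eIF4G1, eIF2a (labelled HA-eIF2a) and eIF3. There were 3 DMSO and 3 i14G1-12 libraries each for eIF1 and eIF4G1, and 2 and 2 each for eIF2a and eIF3. The sources used here do not say how the HA-tagged factors were expressed. The eIF1 libraries carry no usable replicate number and are called a, b and c. Defining markers of the cells could not be looked up, because the files do not pair gene IDs with symbols.

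eIF3 is the largest of the initiation factors. It binds the small ribosomal subunit, keeps it apart from the large one, and links it to the mRNA cap through eIF4G, while eIF1 sits near the P site and guards start codon choice. In human eIF3, eIF3a, eIF3e, eIF3l and eIF3m carry PCI domains and eIF3f and eIF3h carry MPN domains, and together with further subunits they build the core that lies on the back of the small subunit. eIF3b, eIF3g and eIF3i form a mobile module at the other side, and eIF3d is attached at the edge of the core and can itself contact the cap of some mRNAs. The values below are not amounts of these proteins: they are footprints on the mRNAs that encode them, which are themselves translated. EIF3E, EIF3F and EIF3H belong to the mRNAs classed as TOP mRNAs, which begin with a C and a run of pyrimidines and encode much of the translation machinery.

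The RefSeq promoter table for GRCh38.p14 was searched for the members, leaving out its entries on a single chromosome. Further members may therefore be listed there. Because the cap complex assembles on the first bases of an mRNA, the 30 bases around the gene start are shown for the 5 found. Each runs from 10 bases before the start to 20 bases after it on the strand of the gene, and capitals mark the longest run of a C followed by at least 4 bases that are each C or T.
EIF3D: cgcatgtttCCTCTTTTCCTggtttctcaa
EIF3F: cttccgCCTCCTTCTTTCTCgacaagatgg
EIF3M: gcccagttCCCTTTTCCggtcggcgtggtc
EIF3I: ttccggtcttactcacgttgcggCCTTCCT
EIF3B: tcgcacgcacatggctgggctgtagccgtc
The window of EIF3D lies at chr22:36529147-36529176 on the minus strand, that of EIF3F at chr11:7987327-7987356, that of EIF3M at chr11:32583821-32583850, that of EIF3I at chr1:32222397-32222426 and that of EIF3B at chr7:2354817-2354846, the last 4 on the plus strand. The run was 14 bases long in EIF3F, 11 in EIF3D and 9 in EIF3M, and in these 3 it spanned the annotated start. In EIF3I it was 7 bases long and began at base 14 after the start, and EIF3B had none. Of all 27305 promoters in the table, 38.2% held such a run on the strand of the gene in the same window, and 1.07% held one of at least 14 bases. A run found in this window is a description of its letters. EIF3A, EIF3E, EIF3G, EIF3H and EIF3L are named only.

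The libraries held between 10033 and 1161512 counts, and the members together took 0.169% to 0.313% of them. eIF2a DMSO 2 was the shallowest, with 28 counts over the 10 members, and eIF3 DMSO 2 followed with 59179 counts in all and 100 on the members. A member with 0 counts could have had up to 156 CPM (counts scaled to a common library total) in eIF2a DMSO 2, 40.5 CPM in eIF3 DMSO 2 and at most 18.8 CPM in any other library, where 3 counts are taken as the limit of counting error. The eIF1 libraries also stood apart in make-up: 1 gene, ENSG00000173812, held 5.45% to 16.7% of their counts and 0.0848% to 0.455% in the others. CPM values below were scaled by TMM, an edgeR method that aligns the bulk of genes between libraries, over all 20 libraries. Whether the libraries of a group stem from separate cultures is not stated, and the p-values therefore reflect only how these libraries vary, possibly for technical reasons.

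As a share of all counts, the members were at 0.283% ± 0.032 (SD, n = 3) in eIF1 complexes in DMSO and 0.253% ± 0.0037 (SD, n = 3) under i14G1-12. In eIF4G1 complexes they were at 0.244% ± 0.037 and 0.255% ± 0.038 (SD, n = 3 each), and in eIF2a complexes at 0.296% ± 0.024 and 0.293% ± 0.0027 (SD, n = 2 each). The lowest shares were those of eIF3 complexes, 0.194% ± 0.036 in DMSO and 0.211% ± 0.058 under i14G1-12 (SD, n = 2 each). The DMSO and i14G1-12 libraries overlapped in this share in each of the 4 immunoprecipitations.

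Per length, EIF3I and EIF3G of the mobile module led the order of levels. EIF3I, a propeller-shaped subunit, averaged 278 CPM per kb of counted sequence over the 8 groups, followed by EIF3G, which carries an RNA-binding domain, at 179 and EIF3D at 176. EIF3E followed at 133 and EIF3B, the scaffold of the module, at 89.5 CPM per kb. EIF3L was at 54.2, EIF3H at 52.2, EIF3A, the scaffold of the core, at 51.2, EIF3M at 37.6 and EIF3F at 28.4 CPM per kb. All 10 lay between the 73.6th and 96.8th percentile of the genes tested on this scale. EIF3I was above EIF3G in 18 of 20 libraries and EIF3B above EIF3L in 18. EIF3G was above EIF3D in 11, EIF3L above EIF3H in 12, EIF3H above EIF3A in 7 and EIF3A above EIF3M in 13. The order within these last 4 pairs thus changed between libraries, and it was not tested. The counted sequence of EIF3F was 6920 nt, that of EIF3A 6659 nt and that of EIF3M 5047 nt, against 1103 nt for EIF3G. The order per kb depends on which transcript the authors counted and on the division by its length. Without that division EIF3I was again highest, at 394 CPM, but EIF3A followed at 341 and EIF3D at 330 CPM. EIF3G was then at 197 CPM, below EIF3B at 277, EIF3E at 270 and EIF3H at 207 CPM.

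**Figure D1:**
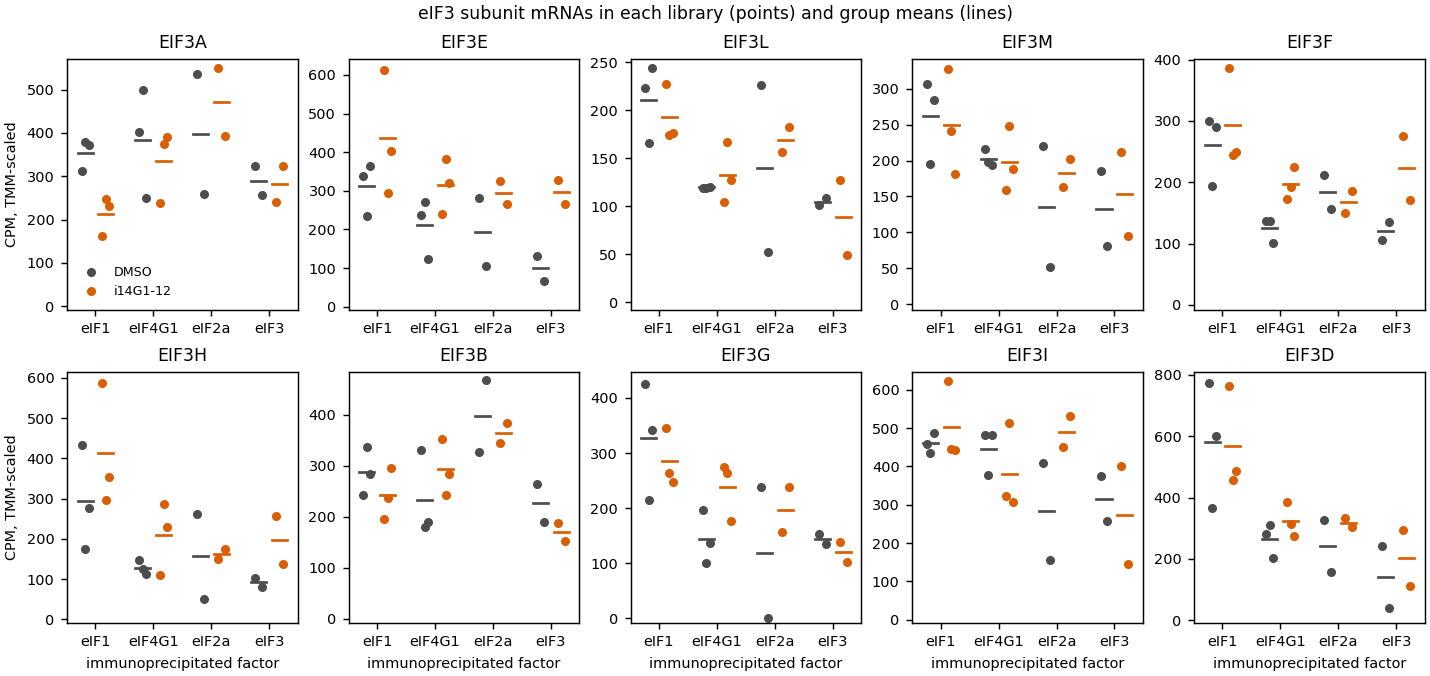
Level of each eIF3 subunit mRNA in every library, in TMM-scaled CPM (vertical axis, from below 0 so that zero values show), for the 4 immunoprecipitations on the horizontal axis. Points are libraries in DMSO (grey) or i14G1-12 (orange) and lines are group means. EIF3D was at 366 to 773 CPM in eIF1 DMSO libraries and at or below 328 CPM in the other DMSO libraries, and EIF3A in eIF1 complexes was the only member there whose i14G1-12 libraries all lay below the DMSO ones.

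Across the conditions the members did not follow 1 order. EIF3D was highest in eIF1 complexes, at 579.8 ± 204 CPM in DMSO and 569.6 ± 169 under i14G1-12 (SD, n = 3 each). It was at 265 ± 56.6 and 325 ± 55.1 CPM in eIF4G1 complexes (SD, n = 3 each), at 242 ± 121 and 319 ± 18.9 in eIF2a complexes and at 141 ± 143 and 202 ± 129 in eIF3 complexes (SD, n = 2 each). EIF3A ran differently: its highest means were 472 ± 112 and 398 ± 195 CPM in eIF2a complexes under i14G1-12 and DMSO (SD, n = 2 each), and its lowest was 214 ± 45.6 CPM in eIF1 complexes under i14G1-12 (SD, n = 3). EIF3B was also highest in eIF2a complexes, at 398 ± 99.6 CPM in DMSO, and lowest in eIF3 complexes under i14G1-12, at 169.8 ± 24.3 (SD, n = 2 each). EIF3E and EIF3H shared the ends of their order: eIF1 complexes under i14G1-12 were highest, at 436 ± 163 and 413 ± 154 CPM (SD, n = 3), and eIF3 complexes in DMSO lowest, at 99.8 ± 45.6 and 92.6 ± 16.3 CPM (SD, n = 2). The remaining 5 members were highest in an eIF1 group. Neighbouring groups could overlap even for EIF3D, whose eIF4G1 i14G1-12 library 1 (385 CPM) was above eIF1 DMSO b (366 CPM).

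The first comparison asked which subunit mRNAs i14G1-12 altered in eIF1 complexes. EIF3A stood lowest, at 312, 379 and 372 CPM in DMSO libraries a, b and c and at 162, 249 and 231 CPM in i14G1-12 libraries a, b and c. All 3 treated libraries lay below all 3 DMSO libraries. Its log2 fold change was -0.74 (SE 0.23, 95% interval -1.21 to -0.27), which did not pass after adjustment over all 8338 genes (edgeR quasi-likelihood test, Benjamini-Hochberg adjusted p = 0.141), whereas the DESeq2 test gave an adjusted p of 0.0469. In 9.2% of all genes the treated libraries were likewise all lower. No member had all treated libraries higher, as 8.85% of all genes did.

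Of the 10 members, 0 passed edgeR's threshold of 0.05 in eIF1 complexes, where 0.456% of all genes did. EIF3A was the 1 member with an unadjusted p under 0.05, against 12.4% of all genes. The median log2 fold change of the members was -0.08 (4 higher, 6 lower), against 0.00 over all genes tested. The other PCI members divided: EIF3E was at 339, 235 and 364 CPM in DMSO and 614, 293 and 402 CPM under i14G1-12 (log2 fold change 0.44, 95% interval -0.06 to 0.95). EIF3L and EIF3M had log2 fold changes of -0.16 and -0.10. The MPN members EIF3H and EIF3F were at 0.46 (95% interval -0.10 to 1.02) and 0.13 (-0.35 to 0.62). For the mobile module and EIF3D the log2 fold changes ran from -0.27 (EIF3B) to 0.10 (EIF3I). The highest EIF3E and EIF3H values and the lowest EIF3A value were all from i14G1-12 library a, in which ENSG00000173812 held 16.7% of the counts, the highest share of any library, and the part of that share in these values was not tested.

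In eIF4G1 complexes the members with the highest log2 fold changes were EIF3H, EIF3G, EIF3F and EIF3E. EIF3F, an MPN subunit of the core, was at 136, 137 and 101 CPM in DMSO libraries 1 to 3 and at 173, 193 and 224 CPM in i14G1-12 libraries 1 to 3, so every treated library was above every DMSO library. It was the only member of the 10 that separated, upwards, as 7.16% of all genes did, and 0 members separated downwards, against 6.98%. Its log2 fold change was 0.66 (SE 0.31, 95% interval 0.02 to 1.30, edgeR adjusted p = 0.566). EIF3H, its MPN partner, was at 148, 127 and 113 CPM in DMSO and at 111, 287 and 229 CPM under i14G1-12. There treated libraries 2 and 3 were above all DMSO libraries and library 1 below them, with a log2 fold change of 0.70 (SE 0.34, 95% interval -0.01 to 1.41, edgeR adjusted p = 0.578).

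EIF3G and EIF3E had log2 fold changes of 0.69 (95% interval 0.02 to 1.36) and 0.57 (-0.10 to 1.23) in eIF4G1 complexes. At the other end EIF3I was at 481, 377 and 482 CPM in DMSO and 322, 514 and 308 CPM under i14G1-12 (log2 fold change -0.23, 95% interval -0.84 to 0.38), and EIF3A at -0.19 (-0.84 to 0.46). EIF3I overlapped between the groups because of treated library 2. Of the 10 members, 0 passed the edgeR threshold, against 0.347% of all genes. The DESeq2 test called 0, but gave no adjusted p for EIF3F and EIF3H. It gave an adjusted p for EIF3A, EIF3E and EIF3I, and whether it did so for the remaining members was not recorded. At an unadjusted p under 0.05 there were 2 members, EIF3F and EIF3G, against 8.65% of all genes. The median log2 fold change of the members was 0.29 (7 higher, 3 lower), against -0.01 over all genes tested. With scaling to total counts only, the medians were 0.13 and -0.16, and again 7 members were higher.

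In eIF2a complexes EIF3I was the 1 member whose libraries separated, at 410.3 and 156 CPM in DMSO libraries 1 and 2 and at 451 and 531 CPM in i14G1-12 libraries 1 and 2. The lower DMSO value rests on 3 counts in the shallowest library. In 21.8% of all genes both treated libraries were likewise higher, and in 7.46% both were lower, which held for 0 members. The log2 fold change of EIF3I was 0.41 (SE 0.37, 95% interval -0.32 to 1.13). EIF3H, at 263 and 52.0 CPM in DMSO and 150.3 and 174 CPM under i14G1-12, had the lowest log2 fold change, -0.53 (SE 0.40, 95% interval -1.31 to 0.24), and its treated libraries lay between the DMSO ones. Without DMSO library 1 this turned to 1.37. Neither edgeR nor the DESeq2 test called a member, with 0 at an unadjusted p under 0.05 against 1.84% of all genes. The share of all genes that edgeR called was 0%. The median log2 fold change of the members was -0.06, against 0.06 over all genes tested.

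In eIF3 complexes, where the mRNAs were recovered with the factor that they encode, EIF3E, EIF3H and EIF3F were higher in both i14G1-12 libraries than in both DMSO libraries. EIF3E, which encodes one of the subunits that contact eIF4G, was at 132 and 67.6 CPM in DMSO libraries 1 and 2 and at 328 and 267 CPM in i14G1-12 libraries 1 and 2. The groups did not overlap. EIF3H was at 104 and 81.1 CPM in DMSO and 258 and 137 CPM under i14G1-12, and EIF3F at 106 and 135 CPM in DMSO and 275 and 172 CPM under i14G1-12. Library 1 was the higher treated library for all 3. The values of DMSO library 2 rest on 5 EIF3E, 6 EIF3H and 10 EIF3F counts.

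The log2 fold change in eIF3 complexes was 1.44 for EIF3E (SE 0.63, 95% interval 0.13 to 2.76), 1.01 for EIF3H (SE 0.64, -0.33 to 2.36) and 0.88 for EIF3F (SE 0.63, -0.44 to 2.20). Without i14G1-12 library 1, EIF3H was at 0.50 and EIF3F at 0.52. None passed the threshold over the 6300 genes tested with all libraries (edgeR adjusted p = 0.9998 for each). The separation upwards in these 3 of 10 members stood against 13.8% of all genes. EIF3B, which moved the other way, was at 264 and 189 CPM in DMSO and 187 and 153 CPM under i14G1-12, so the groups did not overlap but lay within 3 CPM of each other. Downward separation was seen in 12% of all genes, and the log2 fold change of EIF3B was -0.48 (SE 0.60, 95% interval -1.74 to 0.77). The remaining 6 members lay between -0.32 (EIF3G) and 0.33 (EIF3D), with intervals that spanned at least -1.17 to 0.97.

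Neither the edgeR fit, which took no account of replicate numbers, nor the DESeq2 test called a member in eIF3 complexes. An edgeR fit that used those numbers is given with the alternatives below. At an unadjusted p under 0.05 there was 1 member, EIF3E, against 1.75% of all genes. edgeR called 0.0159% of all genes. The median log2 fold change of the members was -0.01 (5 higher, 5 lower), against 0.02 over all genes tested. With 2 libraries a group, one of them of 59179 counts, the intervals of single members here were wide. In counts simulated for this comparison, edgeR called 5.61% of the genes changed 4-fold in the right direction. The lack of calls here therefore says little about whether a member changed.

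**Figure D2:**
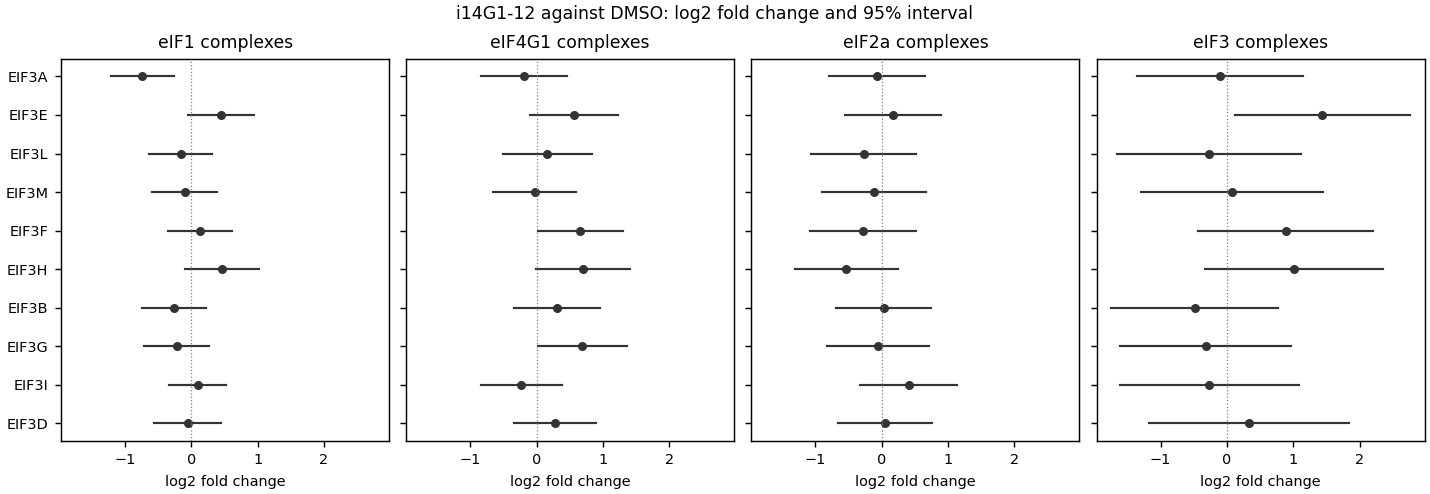
Log2 fold change of i14G1-12 against DMSO (horizontal axis) for each member (vertical axis) in the 4 immunoprecipitations. Points are edgeR estimates and lines their 95% intervals, and no member passed an adjusted p of 0.05. EIF3A in eIF1 complexes lies at -0.74 and EIF3E in eIF3 complexes at 1.44.

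EIF3A had the lowest log2 fold change of the members in eIF1 complexes and EIF3E the highest in eIF3 complexes. Both encode PCI subunits of the core, and the counts of EIF3E were set over those of EIF3A within each library. This ratio does not depend on how libraries are scaled, and it was chosen after its values were seen, so it has no test. In eIF1 complexes it was 1.09, 0.62 and 0.98 in DMSO libraries a, b and c, and 3.78, 1.18 and 1.74 in i14G1-12 libraries a, b and c. In eIF4G1 complexes it was 0.59, 0.54 and 0.50 in DMSO and 1.00, 1.02 and 0.82 under i14G1-12. Both immunoprecipitations thus had every treated library above every DMSO library.

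The same held for the other two factors. In eIF2a complexes the ratio was 0.52 and 0.40 in DMSO and 0.59 and 0.68 under i14G1-12, where the value of 0.40 rests on 2 EIF3E and 5 EIF3A counts. In eIF3 complexes it was 0.41 and 0.26 in DMSO and 1.37 and 0.82 under i14G1-12, where the value of 0.26 rests on 5 EIF3E and 19 EIF3A counts. The gap between the groups was narrow in eIF2a complexes (0.59 against 0.52) and in eIF1 complexes (1.18 against 1.09), whose means were 0.89 ± 0.24 and 2.23 ± 1.37 (SD, n = 3 each). Among the 45 pairs of members, EIF3E over EIF3A was the 1 pair whose ratio separated in the same direction in all 4 immunoprecipitations. Of 4413 genes set over EIF3A in the same way, 0.295% (13 genes) separated upwards in all 4. Both EIF3E and EIF3A were picked from their values in these same libraries, so these counts are a description and not a test. EIF3F over EIF3A separated upwards in 3 of the 4, with eIF2a the exception, EIF3H over EIF3A in 2, eIF4G1 and eIF3, EIF3I over EIF3A in 2, eIF1 and eIF2a, and EIF3B over EIF3A in 1, eIF1. For EIF3D, EIF3G, EIF3L and EIF3M over EIF3A it did so in 0. The shares of all genes that separated over EIF3A in 3, 2, 1 or 0 of the 4 were not computed. Whether these members differ from other genes in this was therefore not tested. In eIF1 complexes EIF3A itself was lower in CPM in every treated library than in every DMSO library, and it enters each of these ratios. RefSeq lists 4 pseudogenes of EIF3E and none of EIF3A, and the sources used here do not say how reads matching several genes were treated.

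**Figure D3:**
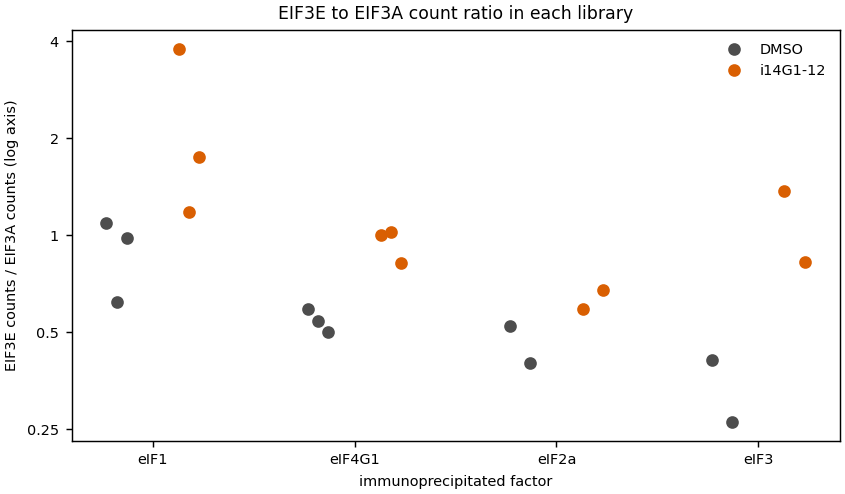
Counts of EIF3E divided by counts of EIF3A in every library (vertical axis, log scale) for the 4 immunoprecipitations (horizontal axis), in DMSO (grey) and i14G1-12 (orange). In each immunoprecipitation the orange points lie above the grey ones, by a narrow margin in eIF1 (1.18 against 1.09) and eIF2a complexes (0.59 against 0.52) and a wider one in eIF4G1 (0.82 against 0.59) and eIF3 complexes (0.82 against 0.41).

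Whether the effect of i14G1-12 differed between immunoprecipitations was tested directly, and no member passed. For the effect in eIF3 complexes minus the mean of the other 3, EIF3E had the highest difference, 0.97 on the log2 scale (95% interval -0.06 to 1.99), and EIF3B the lowest, -0.49 (-1.44 to 0.47). For the effect in eIF1 minus that in eIF4G1 complexes, EIF3G had the lowest, -0.88 (95% interval -1.87 to 0.11), EIF3A was at -0.53 (-1.45 to 0.39) and EIF3I the highest, 0.36 (-0.58 to 1.30). edgeR called 0 members in either test and in the test of any difference between the 4 immunoprecipitations, with 0 at an unadjusted p under 0.05 in each and adjusted p-values that round to 0.9999 or 1. The shares of all genes at an unadjusted p under 0.05 were 3.13% for eIF1 against eIF4G1, 2.85% for eIF3 against the rest and 1.80% for any difference. Over all genes edgeR called 0.0318% in the contrast of eIF1 with eIF4G1, 0% in that of eIF3 with the rest and 0.0212% in the test of any difference. DESeq2 was not run on these contrasts.

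The next comparison set the immunoprecipitations against each other in DMSO, and 3 members, EIF3D, EIF3H and EIF3G, were higher in eIF1 complexes. Each immunoprecipitation is a separate set of libraries. The precipitated factor and any other difference between these sets, such as their preparation, cannot be told apart in such contrasts. EIF3D was at 773, 366 and 600.3 CPM in eIF1 libraries a, b and c. In the other 7 DMSO libraries it was at 283, 311 and 202 CPM with eIF4G1, 328 and 156 CPM with eIF2a, and 242 and 40.5 CPM with eIF3. The values of 156 and 40.5 CPM rest on 3 counts each. EIF3D was the only member whose eIF1 libraries all lay above all the others, as 6.19% of all genes did. The difference from the mean of the other 3 immunoprecipitations was 1.29 on the log2 scale (SE 0.30, 95% interval 0.68 to 1.90, edgeR adjusted p = 0.00495).

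EIF3H and EIF3G also passed. EIF3H was at 432, 174 and 276 CPM in eIF1 libraries a, b and c, at 113 to 148 CPM with eIF4G1, at 263 and 52.0 CPM with eIF2a and at 104 and 81.1 CPM with eIF3. Its difference was 1.06 (SE 0.31, 95% interval 0.44 to 1.68, edgeR adjusted p = 0.0328). EIF3G was at 426, 215 and 341 CPM with eIF1, at 197, 101 and 136 CPM with eIF4G1, at 238 and 0 CPM with eIF2a and at 154 and 135 CPM with eIF3, a difference of 1.02 (SE 0.30, 95% interval 0.42 to 1.62, edgeR adjusted p = 0.0329). For both, eIF1 libraries a and c were above every other DMSO library and library b was within their range.

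In all, 3 of 10 members passed this test, against 4.08% of all genes, and all 3 were higher, against 3.76% of all genes. The members had a median of 0.72 and 9 of 10 were above 0, whereas the median of all genes tested was 0.04. EIF3F, which did not pass, was at 300.5, 193 and 290.3 CPM with eIF1 and at 101 to 212 CPM elsewhere in DMSO, a difference of 0.86 (95% interval 0.30 to 1.43, edgeR adjusted p = 0.0667). EIF3E was at 0.79 (0.20 to 1.38), EIF3L at 0.66 (0.07 to 1.24) and EIF3M at 0.55 (-0.04 to 1.14). EIF3I, EIF3B and EIF3A were nearest to 0, at 0.31 (-0.26 to 0.89), 0.06 (-0.50 to 0.62) and -0.08 (-0.65 to 0.48).

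These calls depended on single libraries and on the scaling. Library a, the highest for EIF3D, EIF3H and EIF3G, was also the eIF1 DMSO library with most counts on ENSG00000173812, 14.01% against 5.45% in b and 7.22% in c, and the part of this in the result was not tested. Without library a, 0 members passed (EIF3D 1.02, edgeR adjusted p = 0.196). Scaling to total counts only moved the median of all genes to -0.33 and that of the members to 0.32, and 0 members passed (EIF3D 0.86, edgeR adjusted p = 0.0932). With DESeq2 size factors EIF3D alone passed (EIF3G and EIF3H, edgeR adjusted p = 0.0592 each). Without eIF2a DMSO 1, which leaves that group with its library of 10033 counts, the median of all genes moved to 1.55, EIF3G to 4.20 and EIF3H to 1.78, and without eIF3 DMSO 1 EIF3D moved to 1.99. EIF3D passed without any other single library and without both libraries under 100000 counts. EIF3H and EIF3G lost the threshold also without eIF1 DMSO c, eIF4G1 DMSO 2 or 3, eIF2a DMSO 2, or eIF3 DMSO 1 or 2, and EIF3G without eIF1 i14G1-12 b as well (edgeR adjusted p from 0.0505 to 0.607 over both genes, library a included). EIF3F came to pass without eIF1 DMSO b (adjusted p = 0.0492), eIF3 i14G1-12 1 (0.0467) or eIF3 i14G1-12 2 (0.0431).

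The same comparison was made between the i14G1-12 groups, in a contrast added after the DMSO values were seen. It comes from the same fit, so it shares the filter, the scaling and the estimate of spread with the DMSO contrast. EIF3D was at 764, 456 and 488 CPM in eIF1 i14G1-12 libraries a, b and c and at 111 to 385 CPM in the other 7 i14G1-12 libraries. EIF3H was at 587, 297 and 355 CPM with eIF1 and at 111 to 287 CPM in the others. For both, and for no other member, every eIF1 library was above every other treated library, as in 4.83% of all genes. The differences were 1.04 for EIF3D (SE 0.30, 95% interval 0.44 to 1.64, edgeR adjusted p = 0.0237) and 1.11 for EIF3H (SE 0.30, 0.51 to 1.70, adjusted p = 0.0146).

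Under i14G1-12 2 of 10 members passed, against 6.97% of all genes, and both were higher, against 5.67%. The median of the members was 0.54, against -0.01 over all genes tested. EIF3G was at 0.67 (95% interval 0.07 to 1.26) and did not pass (edgeR adjusted p = 0.18). EIF3A was lowest, at -0.73 (-1.32 to -0.15, edgeR adjusted p = 0.124). A minimum count of 30 put EIF3A at -0.79 (edgeR adjusted p = 0.0489). With scaling to total counts only, which moved the median of all genes to -0.43, EIF3D and EIF3H did not pass (0.57 and 0.62, edgeR adjusted p = 0.176 and 0.151) and EIF3A was called lower (-1.13, adjusted p = 0.0158). Neither EIF3D nor EIF3H passed without eIF1 i14G1-12 a (0.76 each, edgeR adjusted p = 0.363 and 0.357) or without eIF2a i14G1-12 1 (adjusted p = 0.0655 and 0.0596). EIF3D also lost the threshold without eIF1 i14G1-12 c, eIF2a i14G1-12 2 or eIF3 i14G1-12 2 (0.052 to 0.0841).

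**Figure D4:**
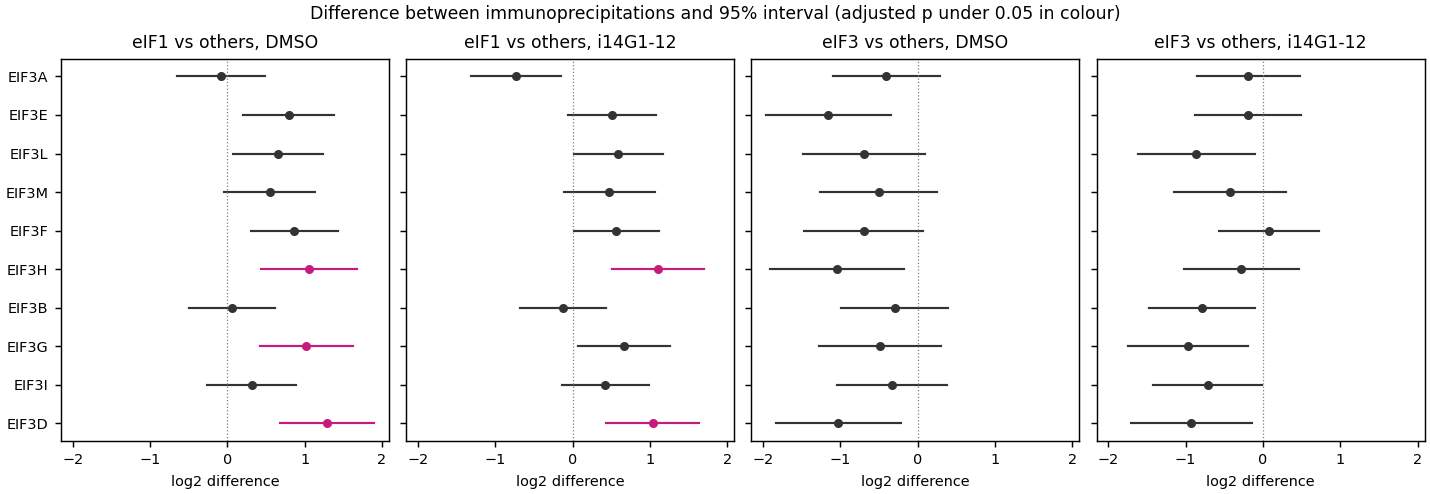
Log2 difference between 1 immunoprecipitation and the mean of the other 3 (horizontal axis) for each member (vertical axis), for eIF1 and eIF3 complexes in DMSO and under i14G1-12. Points are edgeR estimates, lines 95% intervals, and colour marks an adjusted p under 0.05. EIF3D and EIF3H are coloured in both eIF1 panels and EIF3G in the DMSO panel, and all 10 points lie below 0 for eIF3 in DMSO.

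Complexes recovered through eIF3 itself gave lower estimates for its own subunit mRNAs than the other complexes did, with no member past the test. In DMSO all 10 members had a lower estimate in eIF3 complexes than in the mean of the other 3, from -1.16 for EIF3E (SE 0.40, 95% interval -1.96 to -0.35, edgeR adjusted p = 0.582) to -0.30 for EIF3B (-0.99 to 0.39). EIF3E was at 132 and 67.6 CPM with eIF3, against 235 to 364 CPM with eIF1, 124 to 271 CPM with eIF4G1 and 281 and 104 CPM with eIF2a. The eIF3 libraries overlapped those of eIF4G1 and eIF2a. In eIF3 DMSO 2 each member rested on 3 to 19 counts. EIF3H and EIF3D were next lowest, at -1.05 (-1.91 to -0.18) and -1.03 (-1.84 to -0.22).

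By edgeR 0 of 10 members passed this contrast, against 0.0955% of all genes. At an unadjusted p under 0.05 there were 3 members, EIF3E, EIF3H and EIF3D, against 5.79% of all genes. The median of the members was -0.60, against 0.04 over all genes tested, and with scaling to total counts only it was -0.42, against 0.22, with all 10 again below 0. The eIF1 libraries are part of the mean on the other side of this contrast, so it shares values with the eIF1 contrast above.

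Under i14G1-12 9 of 10 members were lower by estimate in eIF3 complexes, with a median of -0.57 against 0.00 over all genes tested. EIF3G, EIF3D, EIF3L, EIF3B and EIF3I had the lowest values, -0.96 (95% interval -1.74 to -0.19) to -0.72 (-1.42 to -0.01), while EIF3E was at -0.19, EIF3H at -0.28 and EIF3F at 0.08. Hence EIF3E and EIF3H, among the lowest in DMSO, were not among the lowest under i14G1-12, and the test of that difference is the contrast of treatment effects given above, which neither EIF3E (0.97) nor EIF3H (0.77) passed. By edgeR 0 members passed, against 2.88% of all genes, and 5 had an unadjusted p under 0.05, against 16.4% of all genes. Without eIF3 i14G1-12 1, 3 members were called lower (EIF3D, EIF3I and EIF3L, edgeR adjusted p = 0.0266, 0.0258 and 0.0429). The same fit called 795 of 10512 genes, 249 of them lower, against 271 genes, 18 of them lower, with all libraries. In that library EIF3I was at 402 CPM and EIF3L at 127 CPM, and in eIF3 i14G1-12 2 they were at 145 and 49.6 CPM.

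eIF4G1 and eIF2a complexes gave smaller differences in DMSO. For eIF4G1 against the mean of the other 3 the members ran from -0.53 for EIF3F (95% interval -1.13 to 0.08) to 0.27 for EIF3I (-0.32 to 0.85), with a median of -0.24 against 0.07 over all genes tested. For eIF2a they ran from -0.25 for EIF3I (-1.02 to 0.52) to 0.53 for EIF3B (-0.21 to 1.27), with a median of 0.33 against -0.13. edgeR called 0 members in both contrasts, against 0.117% and 0.053% of all genes, and 0 had an unadjusted p under 0.05, against 5.18% and 3.70% of all genes. DESeq2 was not run on the contrasts between immunoprecipitations.

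Over the 20 libraries the members varied together unevenly. Pearson's r of log2 CPM between pairs of members had a median of 0.53 over the 45 pairs and ran from -0.30 (EIF3A with EIF3F) to 0.88 (EIF3I with EIF3M). EIF3E with EIF3H had an r of 0.86 and EIF3F with EIF3H 0.84. Without the shallowest library the median was 0.55 and the pair EIF3B with EIF3G moved from -0.30 to 0.46. These values describe 20 libraries that share immunoprecipitations, depth and scaling. By the same measure the 2 genes most like the mean profile of the members, among 4946 genes with a mean of at least 20 CPM, were ENSG00000063177 (r = 0.97) and ENSG00000115875 (r = 0.95).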

How the data were processed

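Footprint reads of 20 libraries were analysed as the raw read counts per gene that the authors deposited in 4 tables with 19029 Ensembl gene IDs. The submitters' processing notes name featureCounts, HISAT2, Bowtie, Trimmomatic and cutadapt with build hg38, without versions. Per the file headers each gene was counted on 1 sequence, so counts do not separate untranslated and coding stretches. Input RNA was not analysed here, so amount of an mRNA and its recovery per molecule cannot be told apart. In 5 members RefSeq lists pseudogenes (13 in all), and reads shared with them could be split or lost.

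Treatment comparisons were fitted per immunoprecipitation, and the contrasts between immunoprecipitations on all 20 libraries (9426 genes), with edgeR 4.0.16 in R 4.3.3: filterByExpr with a minimum count of 10, TMM, glmQLFit, glmQLFTest and Benjamini-Hochberg adjustment over all genes tested. A gene was called at an adjusted p under 0.05. SEs and 95% intervals come from the quasi-likelihood F and its degrees of freedom and cover the spread between libraries. The other test was DESeq2 1.42.0. The scripts were tested on simulated counts in which some genes were changed 4-fold. The treatment fits called 99.5% of these genes in the right direction for eIF1 and 95.5% for eIF4G1. For eIF2a they called 87.3% and for eIF3 5.61%. All 10 members were named, and levels per library were printed for those that passed a test or stood at an end of a comparison. Likeness used log2(CPM + 1).

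The members and lists were chosen with earlier results of these data known. The reference table matched 0 gene IDs to symbols, so lists of other initiation factor genes and of cell type markers were not run. Replicate numbers were not taken as pairs, because they do not state a shared culture. Deviations of same-numbered libraries from their group means correlated at -0.14 to 0.01 for eIF4G1, -0.0045 for eIF2a and 0.41 for eIF3. Both eIF2a and eIF3 have only 2 numbers, so these correlations do not settle whether the numbers are pairs. The alternatives were scaling by DESeq2 size factors or by total counts, a minimum count of 30 or no filter, the DESeq2 test, 1 fit to all 20 libraries, DMSO libraries only, the replicate block, shares without the 10 most abundant genes and leaving out each library.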

Additional observations from a re-analysis of the deposited data

How the results depend on the processing

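Of the values of single members recomputed under the alternatives, 749 kept direction and call, 18 turned direction, 32 lost the threshold and 8 reached it. The cause of these changes was not tested, except where libraries or genes were left out. EIF3A, EIF3E and EIF3H kept their direction in eIF1 complexes, as did EIF3E, EIF3F and EIF3H in eIF4G1 and eIF3 complexes, under each alternative that gave them an adjusted p. DESeq2 gave none for EIF3F and EIF3H in eIF4G1 complexes.

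With no filter, edgeR called 129 genes for i14G1-12 in eIF1 complexes, 68 in eIF4G1 and 2 in eIF3 complexes, 19, 8 and 17 genes for the DMSO contrasts of eIF4G1, eIF2a and eIF3, 1 for the difference of the eIF3 effect from the others and 5 for any difference of effects, and EIF3A in eIF2a complexes turned to 0.036. A minimum count of 30 gave 70 genes for eIF1 and 40 for eIF4G1. In the contrast of eIF1 with the other complexes under i14G1-12 it added EIF3A as lower (-0.79, edgeR adjusted p = 0.0489). DESeq2 called 174, 97 and 3 genes for eIF1, eIF4G1 and eIF3, among them 1 member (EIF3A with eIF1), and put EIF3A in eIF2a complexes at 0.13. In 1 fit to all 20 libraries 4 genes were called for eIF1 and 5 for eIF3, and EIF3A in eIF2a complexes was at 0.050. Scaling to total counts only gave 0 genes for eIF3, 206 and 8 genes for the DMSO contrasts of eIF1 and eIF2a and 446 for eIF3 under i14G1-12, with 0 members for eIF1 in DMSO and 1 for eIF1 under i14G1-12 (EIF3A), and EIF3F in eIF1 complexes at -0.025. In the eIF1 contrast in DMSO this scaling split the calls into 109 higher and 97 lower, against 354 and 31, and under i14G1-12 into 161 and 602, against 534 and 123. With DESeq2 size factors 1 member was called for eIF1 in DMSO, and 436 genes for eIF3 under i14G1-12. The 10 DMSO libraries alone gave 20, 13 and 29 genes for eIF4G1, eIF2a and eIF3 and added EIF3F for eIF1 (adjusted p = 0.0435). Without both libraries under 100000 counts, chosen after seeing the data, 1 member (EIF3D) was called for eIF1, 3 genes for eIF2a and 1 for eIF3. Without the 10 most abundant genes of each library the members' share was 0.333% and 0.310% in eIF1 complexes in DMSO and i14G1-12, and 0.312% in eIF2a complexes under i14G1-12.

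The replicate block changed the call of 1 member: in eIF3 complexes EIF3E had a log2 fold change of 1.43 and an edgeR adjusted p of 0.0255, with 38 genes called. It put EIF3A in eIF2a complexes at 0.14. No paired analysis was possible for eIF1 because its columns carry no replicate numbers.

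When each library was left out in turn, edgeR called 2 to 64 genes for i14G1-12 in eIF1 complexes, 4 to 46 in eIF4G1, 0 to 13 in eIF2a and 0 to 3 in eIF3 complexes, with 0 members each time. For the DMSO contrasts it called 82 to 484 genes for eIF1 (0 to 4 members), 3 to 17 for eIF4G1, 0 to 8 for eIF2a and 1 to 41 for eIF3. Under i14G1-12 it called 101 to 868 genes for eIF1 (0 to 2 members) and 11 to 795 for eIF3 (0 to 3 members). For the differences of effects it called 1 to 3, 0 to 3 and 1 to 5 genes. Directions turned for EIF3A in eIF4G1 (-0.42 to 0.036), eIF2a (-0.20 to 0.56) and eIF3 complexes (-0.31 to 0.12) and in the eIF1 contrast in DMSO (-0.18 to 0.22). They also turned for EIF3F in eIF1 complexes (-0.076 to 0.24) and in the eIF3 contrast under i14G1-12 (-0.31 to 0.36), for EIF3H in eIF2a complexes (-0.67 to 1.37) and for EIF3I in the eIF2a contrast (-1.45 to 0.057).

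In eIF2a and eIF3, 1 of the 2 DMSO libraries held under 100000 counts. A gene with 3 counts would be at 156 CPM in the shallow eIF2a library and at 40.5 CPM in the eIF3 one, and lower levels are not detectable there at 0 counts.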
